A study of Bos taurus with 3 samples.

Results

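Ketone bodies are made in mitochondria from acetyl-CoA. A thiolase joins acetyl-CoA units, the product is turned into acetoacetate, and a dehydrogenase reduces acetoacetate to beta-hydroxybutyrate. Tissues that burn ketone bodies run the dehydrogenase the other way, and OXCT1 then moves a CoA group onto acetoacetate so that the thiolase can split it. In ruminants the epithelium of the rumen, the largest forestomach, is known as a site where butyrate is turned into ketone bodies. The genes described here are 4 enzymes of this pathway: BDH1 (ENSBTAG00000000448), the mitochondrial beta-hydroxybutyrate dehydrogenase; BDH2 (ENSBTAG00000002526), a cytosolic dehydrogenase of the same name; ACAT1 (ENSBTAG00000012885), the mitochondrial thiolase that serves both directions; and OXCT1 (ENSBTAG00000033186), the CoA transferase of ketone body use. They were chosen by symbol, and all 4 were found once each among the 27270 genes of the count matrices.

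The samples were the rumens of 3 newborn Holstein calves, taken 1 day after birth from the ventral sac after the outer muscle layers had been stripped off, with 1 droplet single-cell RNA library per calf and no treatment. The 3 calves form a single group (newborn), so the comparisons run between cell classes, and between the basal and the spinous end of the epithelium, inside the same calves. The adult animals of the study were not analysed here. The libraries of calves 1, 2 and 3 held 82263092, 89803289 and 106145091 unique molecular identifiers (UMIs, 1 per captured RNA molecule) over 7529, 12043 and 11656 barcodes. Of these barcodes, 4935, 10737 and 10543 had 500 to 4000 detected genes, and 4612, 9725 and 9598 were kept after the limits on UMIs and mitochondrial share and the removal of likely doublets. Between libraries, 87 barcodes were shared by 2 calves.

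Kept cells were put into 4 classes by marker lists that hold none of the 4 genes, and are called epithelial, endothelial, fibroblast and immune for short, although each is only like that type by its markers. The epithelial class had 4489, 8731 and 7721 cells in calves 1, 2 and 3, the endothelial class 70, 539 and 678, the fibroblast class 17, 326 and 405, and the immune class 9, 64 and 682. The defining markers followed the classes. PECAM1, an endothelial adhesion molecule, was at 6.47 to 7.30 UMIs per 10000 in the endothelial class and at most 0.00444 in the epithelial class, and PTPRC, the leukocyte antigen CD45, was at 3.25 to 5.68 in the immune class and at most 0.00251 in the epithelial class. Calf 1 gave few cells outside the epithelium, so its values there rest on 0 to 19 UMIs of each of the 4 genes. Clustering without the pathway genes put none of the 9 immune cells of calf 1 in an immune cluster, while 88.2% to 100% of the cells of every other class and calf agreed. Levels below are UMIs of a gene per 10000 UMIs of the summed cells, with exact Poisson 95% intervals that cover counting error only. The share of cells with a UMI was taken after each cell was thinned to 2000 UMIs, since the median depth was 6670 to 10221 UMIs in epithelial cells and 1932 to 5654 in the others. Cells with fewer UMIs than the depth of thinning were left out of such shares. At 2000 UMIs these were 154, 485 and 526 kept cells of calves 1, 2 and 3, and 393 of 748 fibroblasts remained.

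BDH1 was highest in the epithelial class. Its level there in calves 1, 2 and 3 was 0.159 (0.148 to 0.171), 0.1002 (0.0927 to 0.108) and 0.150 (0.141 to 0.159), a mean of 0.136 ± 0.032 (SD, n = 3), from 784, 662 and 1013 UMIs. In endothelial cells it had 0, 3 and 2 UMIs in calves 1, 2 and 3, in fibroblasts 0, 2 and 2, and in immune cells 0, 0 and 1. Calf 2 lay below the other calves in the epithelium by more than counting error, and no level of another class reached that of the epithelium in any calf. The intervals of fibroblasts and immune cells in calves 1 and 2 overlapped that of the epithelium, since these rest on 0 to 2 UMIs. Of all BDH1 UMIs in kept cells, 99.7%, 98.8% and 96.5% were in epithelial cells, which held 98.9%, 94.7% and 88.9% of the UMIs of all genes.

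With UMIs summed over the 3 calves, the epithelial level of BDH1 was 16.4-fold the endothelial one (counting interval 7.02 to 50.6). It was 5.77-fold the fibroblast one (2.25 to 21.2) and 49.8-fold the immune one (8.93 to 1968). These sums drop the pairing by calf, and the intervals cover counting error only. Within calves 2 and 3 the ratio was 7.84 and 25.7 to endothelial cells and 3.60 and 7.17 to fibroblasts. To immune cells it was 50.2 in calf 3. Where a class had no BDH1 UMI in a calf, no ratio could be taken. In edgeR's quasi-likelihood test on the sums per calf and class, with the calf as a block and Benjamini-Hochberg adjustment over all genes tested, BDH1 was higher in epithelial cells on the log2 scale by 4.38 ± 0.50 (SE) than in endothelial cells (adjusted p = 6.63e-08), by 2.89 ± 0.58 than in fibroblasts (adjusted p = 0.000294) and by 5.91 ± 0.78 than in immune cells (adjusted p = 9.55e-07). The fitted sizes rest on 5, 4 and 1 UMIs in the other class, so the counting ratios carry the size. BDH1 passed the filter on low counts through its epithelial sums alone, so these calls describe it and add no support to the ratios. With no such filter the adjusted p was 1.73e-15, 2.07e-05 and 5.23e-11. All fits rest on 3 animals. With the calf as a block, the p-values measure how differences between classes, or between parts of the epithelium, vary from calf to calf. They do not measure the spread of levels between the animals. The spread used was pooled over all classes or parts and drew in part on other genes. Without calf 3, BDH1 fell under the filter on low counts and could not be fitted.

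The few BDH1 UMIs outside the epithelium were set beside those of genes that belong to epithelium, as a measure of free RNA in the droplets. The percentages of the epithelial level below pool the UMIs of the 3 calves, and their intervals cover counting error only. BDH1 in endothelial cells was at 6.09% of its epithelial level (1.98 to 14.2), where PERP, a desmosome gene, was at 3.56%, KRT5, the basal keratin, at 3.65% and DSP, desmoplakin, at 1.84%. In immune cells BDH1 was at 2.01% (0.0508 to 11.2), with PERP at 2.37% and KRT5 at 3.05%. In fibroblasts it was at 17.3% (4.71 to 44.4), with PERP at 5.37%, KRT5 at 5.52%, KRT17, another keratin, at 10.1% and DSP at 3.5%. DSP lay under the interval of BDH1 in endothelial cells and fibroblasts. S100A14 stood at 31.4% and 29.1% in the endothelial and fibroblast classes and at 2.02% in the immune class. All 4 fibroblast UMIs of BDH1 were in the 240 cells with myofibroblast markers (661325 UMIs of all genes), and the other 508 fibroblasts (1056746 UMIs) had 0. The part of free RNA in these few UMIs was not tested. After thinning, BDH1 was found in 2.41% (1.98 to 2.91), 1.12% (0.904 to 1.36) and 2.19% (1.87 to 2.55) of epithelial cells of calves 1, 2 and 3 (exact binomial 95% intervals), and in 0 of 483 and 0 of 597 endothelial cells of calves 2 and 3. Taken as 3 counts of the total, a count of 0 allows shares of cells with a UMI at this depth of up to 0.621% and 0.503%, and the exact intervals reach 0.761% and 0.616%. Without thinning, the epithelial shares were 12.7%, 5.33% and 8.74%.

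OXCT1 showed the opposite order, with its lowest level in the epithelium. The epithelial level was 0.0829 in calf 1, 0.0622 in calf 2 and 0.0581 in calf 3 (mean 0.0677 ± 0.0133 (SD, n = 3)). Endothelial cells had 0.588, 0.443 and 0.562 (0.531 ± 0.077), fibroblasts 0.711, 0.543 and 0.762 (0.672 ± 0.115), and immune cells 0.406, 0.228 and 0.338 (0.324 ± 0.090) in calves 1, 2 and 3. Every calf was lower in epithelial cells than in each other class. Fibroblast and endothelial levels overlapped between calves, whereas immune levels lay below all endothelial levels, with wide counting intervals in calves 1 and 2 (2 and 7 UMIs).

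In the same edgeR fit the log2 difference of OXCT1 in epithelial cells was -2.55 ± 0.23 from endothelial cells (adjusted p = 1.6e-09), -2.91 ± 0.27 from fibroblasts (adjusted p = 2.74e-09) and -1.92 ± 0.29 from immune cells (adjusted p = 5.91e-06). With UMIs summed over calves, the endothelial level was 7.81-fold (6.88 to 8.85) that of the epithelium. The fibroblast level was 10.1-fold (8.27 to 12.2) and the immune level 4.97-fold (4.09 to 5.99). These sums drop the pairing by calf, and the intervals cover counting error only. Within calves 1, 2 and 3 the endothelial ratio was 7.09, 7.12 and 9.67 and the fibroblast ratio 8.57, 8.73 and 13.1. The immune ratio was 4.89, 3.66 and 5.81. The difference from immune cells lost its call without calf 3, which gave 113 of the 122 immune UMIs (-1.34, adjusted p = 0.106). After thinning, OXCT1 was found in 1.59%, 1.21% and 0.925% of epithelial cells and in 9.09%, 8.28% and 9.05% of endothelial cells of calves 1, 2 and 3. Fibroblasts deep enough to be thinned, 393 of 748 over the calves, had 12.4% and 11.8% in calves 2 and 3. Because the epithelium made up most cells, it still held 94.2%, 72.6% and 50.0% of all OXCT1 UMIs in kept cells.

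ACAT1 was present in every class. Its epithelial level was 0.676, 0.476 and 0.569 in calves 1, 2 and 3 (0.573 ± 0.1001 (SD, n = 3)), its endothelial level 0.402, 0.294 and 0.259 (0.319 ± 0.075), its fibroblast level 0.474, 0.682 and 0.700 (0.619 ± 0.126) and its immune level 0.406, 0.325 and 0.245 (0.325 ± 0.080). Epithelial cells lay above endothelial and immune cells in each calf, and above fibroblasts only in calf 1, where fibroblasts had 2 UMIs. ACAT1 was higher in epithelial cells than in endothelial cells (log2 difference 1.33 ± 0.23, adjusted p = 3.2e-05, edgeR) and than in immune cells (1.32 ± 0.28, adjusted p = 0.000359). Against fibroblasts the log2 difference was 0.11 ± 0.24 (adjusted p = 0.762), and it turned to -0.35 when libraries were scaled by total UMIs alone. The endothelial and immune levels, next to each other in the order, overlapped between calves. After thinning, 12.2%, 8.66% and 10.3% of epithelial cells had an ACAT1 UMI.

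BDH2 was the most even of the 4 genes. Its epithelial level was 0.445, 0.497 and 0.465 in calves 1, 2 and 3 (0.469 ± 0.026 (SD, n = 3)), its endothelial level 0.433, 0.609 and 0.446 (0.496 ± 0.098), its fibroblast level 0.237, 0.529 and 0.480 (0.415 ± 0.157) and its immune level 0.203, 0.456 and 0.367 (0.342 ± 0.128). The ranges of all 4 classes overlapped, and the lowest fibroblast and immune values, in calf 1, came from 1 UMI each. The log2 difference of epithelial from endothelial cells was 0.36 ± 0.22 (adjusted p = 0.175) and from fibroblasts 0.45 ± 0.25 (adjusted p = 0.176), and both turned to or below 0 (-0.07 and -0.00072) with total UMIs alone. From immune cells it was 0.66 ± 0.26 (adjusted p = 0.0379), a call that was lost in 8 of 15 alternatives (adjusted p from 0.033 to 0.306 over all 15). Thinned shares in the epithelium were 8.09%, 9.24% and 8.35%.

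Read against all genes tested, calls between classes were common. Of 10221 genes, 47.7% passed between epithelial and endothelial cells (24.3% higher and 23.4% lower in epithelium), 38.5% against fibroblasts (19.1% and 19.4%) and 49.4% against immune cells (27.4% and 22.0%). Beside BDH1, 2 of the other 3 genes passed against endothelial cells, 1 against fibroblasts and 3 against immune cells. With total UMIs in place of edgeR's TMM factors, the median log2 difference of all genes moved from 0.06 to -0.37, from 0.07 to -0.39 and from 0.17 to -0.17, and the split of higher and lower calls from 2485 and 2387 to 1602 and 3808, from 1951 and 1984 to 1166 and 3169, and from 2804 and 2248 to 2069 and 2976. The calls of BDH1 and OXCT1 in the 3 comparisons, and of ACAT1 against endothelial and immune cells, also passed with that scaling.

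A further 18 genes of the pathway and its surroundings are reported, of which 16 were in the matrix and 12 passed the filter on low counts between classes. Against endothelial cells 7 of 12 were higher in epithelium and 0 lower, against fibroblasts 9 and 1, and against immune cells 7 and 1. Over all 10221 genes tested, 24.3%, 19.1% and 27.4% were higher and 23.4%, 19.4% and 22.0% lower. The lower call against fibroblasts was PPARGC1A, which passed the filter through its fibroblast sums alone. The median log2 difference of the 12 genes was 1.86, 1.37 and 2.21, beside 0.06, 0.07 and 0.17 over all genes tested. Against fibroblasts the higher calls came to 6 with DESeq2, with total UMIs alone and without calf 3 (of 11 tested), and with total UMIs alone the medians were 1.43, 0.91 and 1.86. The enzymes of short-chain beta-oxidation were higher in epithelium than in endothelial, fibroblast and immune cells, HADH by 3.77, 3.07 and 3.89, ECHS1 by 2.34, 1.66 and 2.18 and ACADS by 2.13, 2.11 and 2.29, each passing the test.

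Of the transport genes, SLC16A1 and BSG were higher in epithelium in all 3 comparisons. SLC16A1 (MCT1), a carrier of lactate and ketone bodies, differed from endothelial, fibroblast and immune cells by 3.20, 4.13 and 3.14 on the log2 scale, and BSG, its partner in the membrane, by 1.59, 1.30 and 2.22, each passing the test. SLC16A7 (MCT2) had 956, 1135 and 1913 epithelial UMIs in calves 1, 2 and 3, beside 0, 0 and 3 in endothelial and 0, 0 and 2 in immune cells, and passed the filter against these through its epithelial and fibroblast sums. With UMIs summed over the calves, its epithelial level was 44.5-fold the endothelial one (15.2 to 216) and 40.6-fold the immune one (11.2 to 335). These intervals cover counting error only. Within calf 3 the ratios were 32.4 and 47.4. Against fibroblasts it was higher by 1.25, a call that was lost in some alternatives (adjusted p from 0.00218 to 0.169 over 15). SLC16A6, another carrier of the same family, did not pass the filter and went the other way over the summed calves, with 18 endothelial and 14 immune UMIs that put those levels at 2.45-fold (1.43 to 3.97) and 3.14-fold (1.69 to 5.38) the epithelial one, and 0 fibroblast UMIs. Its epithelial level ran from 0.00242 to 0.0194 between calves. Within calf 3, which gave 11 of the endothelial and 13 of the immune UMIs, the ratios were 1.65 (0.806 to 3.06) and 2.00 (1.04 to 3.55). The endothelial ratio in calf 2 was 10.6 (3.38 to 28.4), from 6 endothelial and 16 epithelial UMIs. The genes that fell in epithelium were PPARGC1A, a coactivator of mitochondrial genes, against fibroblasts (-6.62, adjusted p = 1.09e-07, with 25 UMIs in all epithelial cells) and HMGCS1, the cytosolic synthase of sterol synthesis, against immune cells (-1.0, adjusted p = 0.00544, lost without calf 2 at -0.56 and adjusted p = 0.323, and without calf 3 at -0.87 and adjusted p = 0.0812). CPT1A, which brings long-chain fatty acids into mitochondria, had log2 differences of 0.03, -0.04 and -0.29 with adjusted p = 0.955, 0.961 and 0.53.

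**Figure D1:**
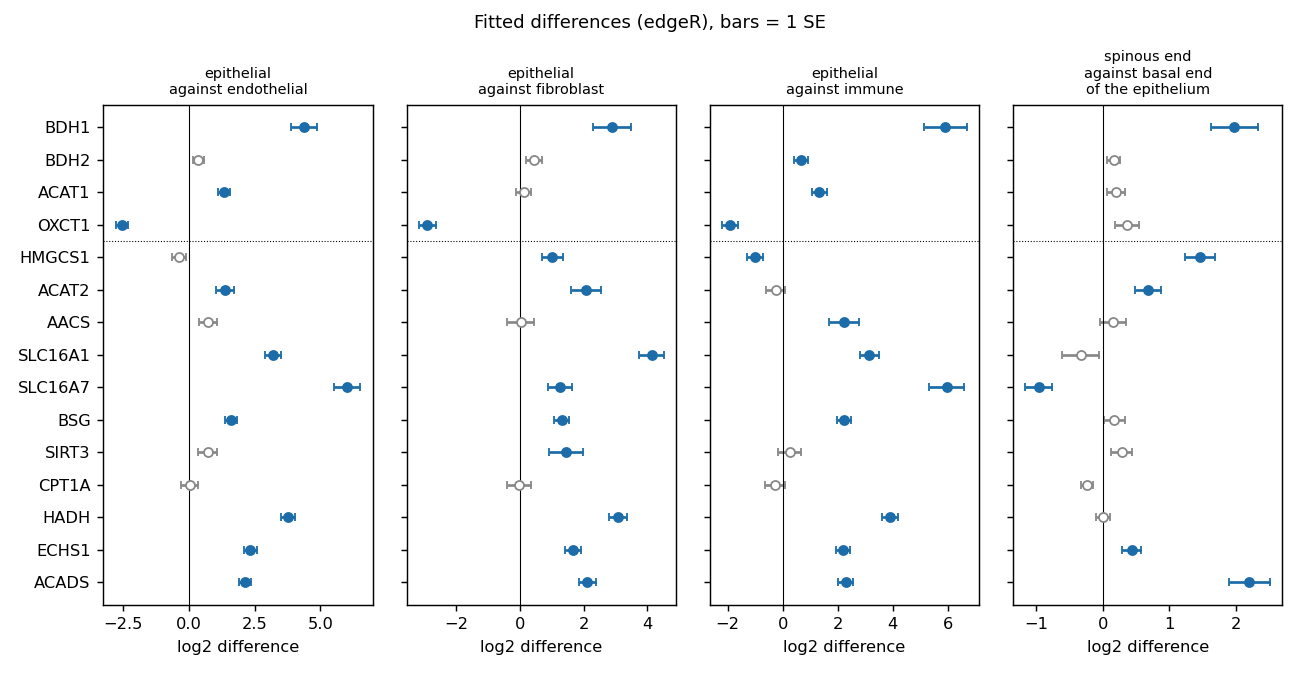
Log2 differences fitted by edgeR for the 4 genes (above the dotted line) and 11 other pathway genes, with epithelial cells against each other class and the spinous against the basal end. Bars are 1 SE, and filled blue points have an adjusted p under 0.05; BDH1 lay at 2.89 to 5.91 and OXCT1 at -2.91 to -1.92 between classes.

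Within the epithelium, each cell had a score of spinous minus basal markers (means of the natural log of 1 plus UMIs per 10000), and the cells of each calf were cut into 6 ranges from the lowest 20% to the highest 5%. Basal cells are the dividing layer on the basement membrane, and spinous cells have left it and begun to differentiate. The calves did not reach the same point. The highest 5% had a median score of 1.73 and 1.57 in calves 1 and 2 and -0.63 in calf 3. Its summed spinous markers were 307, 431 and 65.8 UMIs per 10000, beside 8.27, 7.77 and 1.78 in the lowest 20%. Its summed basal markers were still 5.55, 33.3 and 35.7, beside 124, 158 and 99.9. KRTDAP, a spinous marker, was at 34.4, 34.5 and 0.999 there. In calf 2 the basal marker KRT14 was at 15.9 there, above its 12.4 at 20 to 40%. The spinous end is thus a range of a score and not a cell type. The 5 mitotic markers summed to 1.11 and 0.64 UMIs per 10000 in the highest 5% of calves 1 and 2 and to 5.60 in calf 3, and to 4.64, 2.84 and 1.7 in the lowest 20%. The mitochondrial share was 8.54%, 11.2% and 9.81% in the highest 5% and 6.87%, 9.22% and 6.91% in the lowest 20%.

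BDH1 rose toward the spinous end. From the lowest 20% to the highest 5%, its level was 0.115, 0.116, 0.0951, 0.124, 0.243 and 0.500 in calf 1. It was 0.154, 0.0655, 0.0454, 0.0363, 0.0801 and 0.374 in calf 2. In calf 3 it was 0.0924, 0.115, 0.132, 0.138, 0.190 and 0.455. The highest 5% lay above all other ranges in each calf by more than counting error. The course below it differed, since calf 2 fell from the basal end to a low at 60 to 80% while calf 3 went up through every range. The highest 5% was 4.36-fold, 2.44-fold and 4.92-fold the lowest 20% in calves 1, 2 and 3. After thinning, the share of cells with a BDH1 UMI was 2.04%, 2.00% and 1.39% in the lowest 20% and 5.09%, 4.34% and 7.78% in the highest 5%.

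In the edgeR fit on the 6 ranges of the 3 calves, BDH1 was higher at the spinous end by 1.98 ± 0.36 on the log2 scale (adjusted p = 0.000501). Of 11616 genes tested, 38.3% passed in this comparison (18.8% higher and 19.6% lower at the spinous end), and 1 of the 4 genes, BDH1, was among them. Total UMIs alone moved the median of all genes from -0.06 to -0.25 and the split of higher and lower calls from 2178 and 2274 to 1422 and 3620, and the BDH1 call still passed. It was 2.39 (adjusted p = 0.000102) without cells that had a mitotic UMI and 1.90 (adjusted p = 0.00105) with at most 20% mitochondrial UMIs. The epithelial class takes in cells with spinous markers but few general epithelial ones, 135, 89 and 27 cells in calves 1, 2 and 3, a choice made after their BDH1 levels (0.614, 0.311 and 0.888) had been seen. Without them the difference was 1.68 (adjusted p = 0.00469), and the call was then lost without the calf block (adjusted p = 0.0553), without calf 3 (1.47, adjusted p = 0.0718) and with the highest 20% against the lowest 20% (0.80, adjusted p = 0.129). With them, the call held in all of those settings.

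The other members had no call along the epithelium. BDH2 stayed between 0.413 and 0.533 UMIs per 10000 in all 6 ranges of the 3 calves, with a log2 difference of 0.17 ± 0.10 (adjusted p = 0.207) that turned to -0.03 with total UMIs alone. OXCT1 stayed between 0.0470 and 0.103, with 0.37 ± 0.18 (adjusted p = 0.115). ACAT1 moved differently between calves, with 0.633, 0.598 and 0.581 in the lowest 20% of calves 1, 2 and 3 and 0.689, 0.427 and 0.765 in the highest 5%. Its log2 difference was 0.21 ± 0.14 (adjusted p = 0.247), and it passed without calf 2 (0.49, adjusted p = 0.0137).

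**Figure D2:**
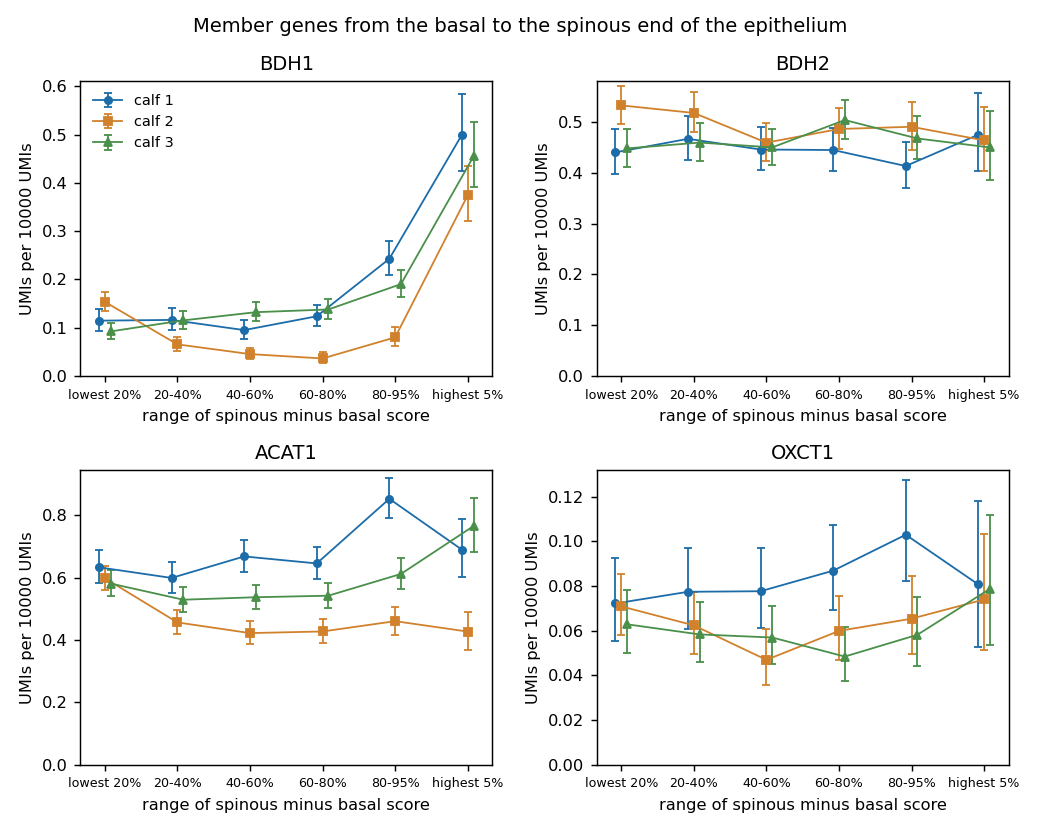
Level of each gene (UMIs per 10000 UMIs of the summed cells) in 6 ranges of the spinous minus basal score of epithelial cells, from the basal end at the left. Lines join the ranges of a calf and bars are exact Poisson 95% intervals. BDH1 was highest in the highest 5% of each calf (0.500, 0.374 and 0.455), while BDH2 stayed between 0.413 and 0.533.

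Of the 16 other pathway genes in the matrix, 14 were tested along the epithelium. Of these, 5 were higher at the spinous end, 1 was lower and 8 were not called. Calls were common over all 11616 genes tested, of which 38.3% passed (18.8% higher and 19.6% lower). The median log2 difference of the 14 genes was 0.17, beside -0.06 over all genes. With total UMIs alone, 2 of the 14 were higher and 2 lower, and their median turned to -0.03. ACADS, the short-chain acyl-CoA dehydrogenase that acts on butyryl-CoA, had 0.763, 1.25 and 1.28 UMIs per 10000 in the lowest 20% of calves 1, 2 and 3 and 4.82, 3.82 and 4.65 in the highest 5% (2.20 ± 0.31, adjusted p = 6.82e-05).

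HMGCS1 had 0.424, 0.364 and 0.395 at the basal end and 0.640, 1.05 and 1.09 at the spinous end (1.46 ± 0.22, adjusted p = 0.000138). ACADS and HMGCS1 were both higher at the spinous end in every calf. The other higher calls were ACAT2, the cytosolic thiolase (0.68 ± 0.19, adjusted p = 0.00979), FGF21, a fasting hormone (1.27 ± 0.45, adjusted p = 0.0349), and ECHS1 (0.43 ± 0.14, adjusted p = 0.0245). The ACAT2 level went the other way in calf 1, with 0.425 at the basal and 0.379 at the spinous end. The call of ACAT2 was kept in 16 of 22 alternatives, that of FGF21 in 8 of 21 and that of ECHS1 in 10 of 22. Each was lost with total UMIs alone and with no calf block, among others. FGF21 had 25 UMIs in the lowest 20% and 17 in the highest 5% over the calves. SLC16A7 was the gene that fell, from 0.225 to 0.149, from 0.194 to 0.0522 and from 0.332 to 0.147 (-0.96 ± 0.20, adjusted p = 0.00138, and 0.0525 without the calf block). SLC16A1 moved differently between calves, with 3.24, 1.49 and 3.61 at the basal end and 1.27, 0.712 and 5.34 at the spinous end of calves 1, 2 and 3. Its log2 difference was -0.33 ± 0.27 (adjusted p = 0.371), which passed without calf 3 (-0.94, adjusted p = 0.0164) and turned to 0.18 without the cells that entered through spinous markers.

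**Figure D3:**
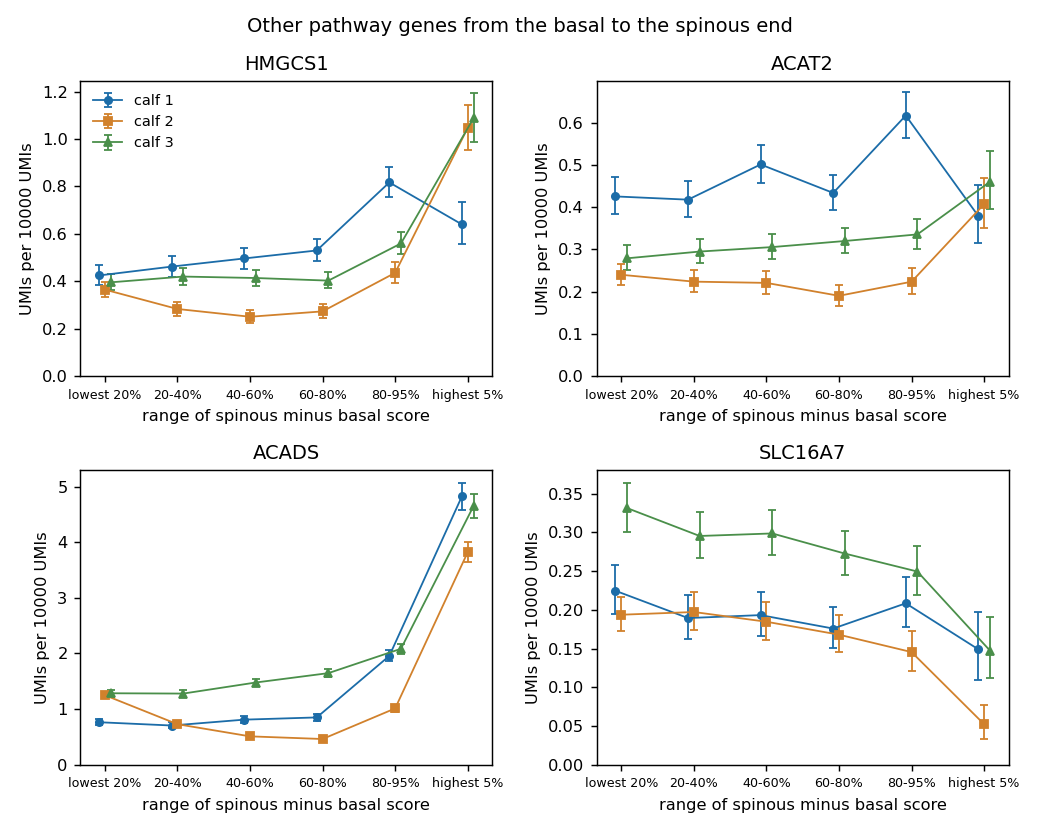
Level of 4 other pathway genes (UMIs per 10000 UMIs of the summed cells) in the same 6 ranges of epithelial cells, with lines for calves and exact Poisson 95% intervals. ACADS was highest and SLC16A7 lowest in the highest 5% of every calf, while HMGCS1 and ACAT2 were highest there in calves 2 and 3 and at 80 to 95% in calf 1.

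In single epithelial cells, BDH1 was set beside the other members. Among cells thinned to 4000 UMIs, 195, 186 and 273 had a BDH1 UMI in calves 1, 2 and 3. Of these, 22.6% (16.9 to 29.1), 22.6% (16.8 to 29.3) and 24.2% (19.2 to 29.7) had an ACAT1 UMI, with exact binomial 95% intervals, beside 21.9%, 15.4% and 18.7% of the cells without BDH1. The ACAT1 share was above that of the other cells by more than counting error in calves 2 and 3 and within it in calf 1. OXCT1 was found in 1.54%, 3.23% and 1.83% with BDH1 and in 3.57%, 2.22% and 2.07% without, and BDH2 in 16.9%, 18.8% and 15.8% with and 15.9%, 17.7% and 16.2% without, each within counting error. Cells of a calf share a library, so these shares are descriptions with no test between conditions.

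**Figure D4:**
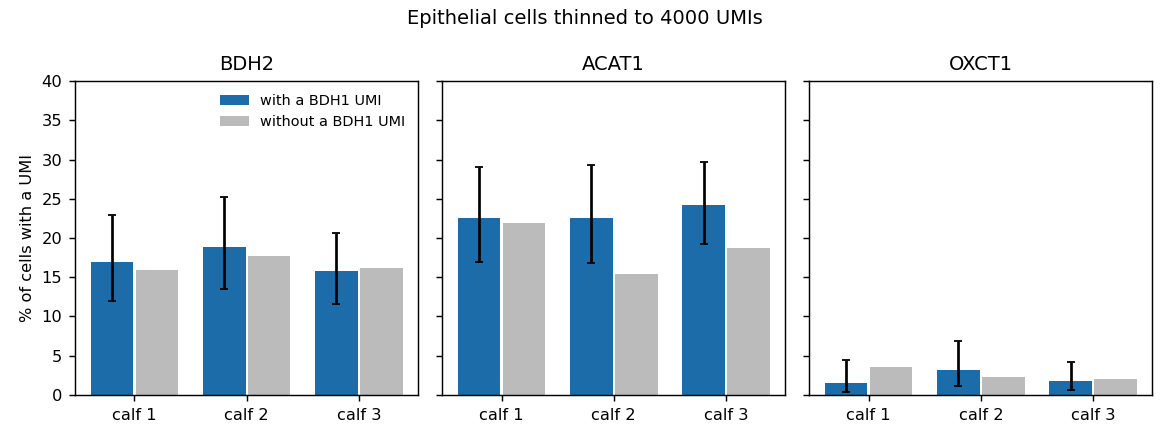
Share of epithelial cells (percent, after thinning to 4000 UMIs) with a UMI of BDH2, ACAT1 or OXCT1, among cells with a BDH1 UMI (blue, with exact binomial 95% intervals) and without (grey). ACAT1 was found in 22.6% to 24.2% of cells with BDH1 and in 15.4% to 21.9% of cells without, whereas OXCT1 was at 1.54% to 3.57% in both.

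The genes most like each member were taken over the 18 sums of 6 ranges and 3 calves by Pearson's r of log levels centred within each calf, among 10152 genes. These sums share libraries and the course along the score, so r describes them and carries no p. Nearest to BDH1 were FAM162A (r = 0.990), MGST3 (0.989) and TST (0.986), while ACADS reached 0.984. Nearest to ACAT1 were ANAPC11 (0.966), NDUFB5 (0.935) and ARF2 (0.921), and nearest to OXCT1 were MRPS16 (0.891), METTL26 (0.888) and MRPL40 (0.874). BDH2 was followed least closely, by ENSBTAG00000004586 (0.755), RBAK (0.685) and SGSH (0.685). Between members, r was 0.51 for BDH1 and ACAT1, 0.61 for BDH1 and OXCT1, and 0.74 for ACAT1 and OXCT1. BDH2 had -0.01 with BDH1, -0.01 with ACAT1 and -0.26 with OXCT1.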

How the data were processed

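The authors deposited UMI counts per gene and barcode, made with Cell Ranger 3.1.0 (per the submitters' processing notes) against the ARS-UCD1.2 genome named in the methods, unnormalized and before quality filters. Reads of near-identical genes could be lost or split there. No normalized values were used.

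Barcodes were kept with 500 to 4000 genes, up to 50000 UMIs and a mitochondrial share of 40% or less (13 named genes), and 274, 929 and 882 likely doublets were removed by a score against simulated doublets. A cell joined the class whose marker list alone reached 40 (epithelial) or 8 (endothelial, fibroblast, immune) UMIs per 10000 with at least 3 UMIs. DCN was left out of the fibroblast list, which took in the myofibroblast list, and the spinous list without S100A8 and S100A9 was added to the epithelial one. These changes and the cut-offs were chosen after the data had been seen, the last after BDH1 levels in the cells concerned. The members and lists were chosen with earlier results of these data known.

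Counts were summed per calf and class, and per calf and score range, and tested with edgeR 4.0.16 (TMM, filterByExpr, quasi-likelihood, calf as block, Benjamini-Hochberg over all genes, threshold 0.05). The calf block follows from the design, since all classes of a calf come from 1 animal and library. The named genes were the 4 members, 18 listed pathway genes, and the 3 genes most like each member (log2 of UMIs per 10000 plus 0.1, at least 300 UMIs). Some items are not reported here. DESeq2 1.42.0 and other scalings, filters, gates, scores and thinning depths were alternatives.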

Additional observations from a re-analysis of the deposited data

How the results depend on the processing

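Leaving out 1 calf gave 2918 to 4983, 2294 to 4160 and 2630 to 5464 called genes for epithelial against endothelial, fibroblast and immune cells, and 2749 to 3862 for the spinous against the basal end. For the last comparison the count was 1446 with no replicate block and 1767 with the highest 20% against the lowest 20%. With the epithelial gate without the spinous list (added after seeing the data) these were 681 and 1346, and leaving out calf 1, 2 or 3 gave 2381, 2964 and 2099. BDH1 at the spinous end was then 1.69 with no replicate block, 0.80 with the 20% ends, and 1.47 to 1.95 with a calf left out. Elsewhere BDH1 kept its call under 17 alternatives along the epithelium and under all 14 of each class comparison in which it could be fitted. Without calf 3 it fell under the filter on low counts between classes. It passed that filter through its epithelial sums alone, so its class calls describe it and add no support.

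BDH2 against immune cells lost its call with total UMIs alone (0.32), no filter (0.70), no replicate block (0.68), no doublet removal (0.64), classes from graph clusters (0.59) and halved gate cut-offs (0.59, added after seeing the data), and ranged from 0.62 to 0.96 with a calf left out. With total UMIs alone it was -0.0713 against endothelial cells, -0.000723 against fibroblasts and -0.0331 at the spinous end. Without the spinous list in the gate it was -0.00337 there, -0.0101 with no replicate block, -0.0212 with the 20% ends, -0.000861 without calf 1 and -0.0219 without calf 3. It passed with no upper limit on genes (0.23). ACAT1 against fibroblasts was -0.35 with total UMIs alone, and at the spinous end it ranged from 0.0588 to 0.493 with a calf left out (0.438 without calf 2 and with the narrower gate). OXCT1 against immune cells ranged from -2.10 to -1.34 with a calf left out and passed at the spinous end with no doublet removal (0.47). The cause of these changes was not tested.

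The epithelial level of BDH1 was 0.175 with no upper limit on genes. Thinning to 1000 UMIs, to 4000 UMIs and none gave mean epithelial shares of 0.998%, 3.63% and 8.92% for BDH1, 4.44%, 16.6% and 32.6% for BDH2, 5.33%, 18.8% and 35.2% for ACAT1, and 0.578%, 2.59% and 5.75% for OXCT1. Thinned shares with doublets kept or with no upper limit were not run.

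Of the other pathway genes, those that changed sign in some setting had no call in the main one, except ECHS1. ECHS1 at the spinous end was -0.0105 with the narrower gate and the 20% ends. AACS there was -0.0404 with total UMIs alone, -0.0337 with the 20% ends, -0.0358 with the narrower gate as well and -0.0371 with a score without S100A8 and S100A9. SLC16A1 with the narrower gate was 0.178, 0.347 with no replicate block, 0.0609 with the 20% ends, 0.167 without calf 1 and 0.484 without calf 2 (adjusted p = 0.00276 in edgeR), and with the wider gate -0.941 to -0.00287 with a calf left out. BSG was -0.011 with total UMIs alone, -0.0457 with a score without S100A8 and S100A9, and -0.127 to 0.423 with a calf left out. PPARA was 0.257 with the score after thinning, -0.67 to 0.11 with a calf left out, and 0.352 with the narrower gate without calf 2. SIRT3 was -0.00718 with the narrower gate and the 20% ends. HADH was -0.188 with total UMIs alone, -0.0401 with no filter, -0.0118 with the score after thinning, -0.0567 with a score without S100A8 and S100A9, -0.00358 with mitotic cells left out, -0.0219 with a score of at least 0 (added after seeing the data), -0.0824 to 0.228 with a calf left out, and -0.00171 with the narrower gate without calf 1. Against fibroblasts AACS was -0.053 with DESeq2 size factors, -0.426 with total UMIs alone, -0.0348 and -0.108 with doubled and halved cut-offs, -0.0619 with the narrower gate, and -0.102 to 0.877 with a calf left out. CPT1A there was 0.0603 with no filter, 0.215 with no replicate block, 0.189 with doublets kept, 0.0253 at 20% mitochondrial UMIs, 0.0348 with no upper limit, 0.0657 with graph clusters, 0.000165 with halved cut-offs, and -0.977 to 0.915 with a calf left out. Against endothelial cells CPT1A was -0.014 with DESeq2 size factors, -0.391 with total UMIs alone, -0.0173 with graph clusters, and -0.527 to 0.722 with a calf left out. Against immune cells ACAT2 was -0.549 to 0.491 with a calf left out, PPARGC1A -1.46 with DESeq2 and -0.441 with graph clusters, and SIRT3 -0.0732 with total UMIs alone and -0.138 to 1.35 with a calf left out.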

Other observations

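Cells outside the filters or the classes also held BDH1. Barcodes with over 4000 genes that met the epithelial marker gate, 784, 173 and 573 in calves 1, 2 and 3, had 0.284, 0.334 and 0.430 BDH1 UMIs per 10000, above the kept epithelial cells of each calf (0.159, 0.1002 and 0.150). In calf 3, 38 kept cells met no marker gate and had 27 BDH1 UMIs (0.985 per 10000, 0.649 to 1.43). The 17 such cells of calf 1 had 2 BDH1 UMIs (0.233, 0.0283 to 0.843), and the 11 of calf 2 had 0. Neither of these groups is in a main comparison. The barcodes over 4000 genes entered the setting with no upper limit, and the 38 cells entered the one with classes from graph clusters. Barcodes under 500 genes had 0.0312, 0.0506 and 0.0313 BDH1 UMIs per 10000 from 8, 10 and 2 UMIs. Within the epithelial class, single cells held up to 8, 12 and 10 BDH1 UMIs in calves 1, 2 and 3.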
